A study of Mus musculus with 6 samples.

Results

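The interferon regulatory factors are transcription factors that bind DNA through a shared domain with conserved tryptophans. The genes described here are Irf1, Irf2, Irf3, Irf4, Irf5, Irf7, Irf8 and Irf9, chosen by their symbols in the deposited expression table, 8 genes of 41386 listed. They were measured in DN4 thymocytes, the last double-negative stage before the coreceptors CD4 and CD8 appear at the surface. The cells came from adult C57BL/6 mice of genotype Gata3(g/+), in which 1 Gata3 allele carries a GFP reporter, and both groups share that genotype. GFP decided the sort into a negative and a positive group, each with 3 libraries of rRNA-depleted total RNA. Whether each library stands for its own animal is not in the labels, so the p-values measure a spread between libraries that may be technical.

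Interferon regulatory factors stand at both ends of interferon signalling. Irf3 and Irf7 are phosphorylated downstream of nucleic acid sensors and switch on interferon genes, and Irf9 joins Stat2 in ISGF3, the complex that carries the signal of type I interferon receptors to its target genes. Irf1 is an activator and Irf2 an antagonist at shared sites, and both are known to shape T lymphocyte development in the thymus, while Irf4 and Irf8 act with partner factors in lymphoid and myeloid lineages.

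Levels were deposited as FPKM, in which fragments are divided by the length of the gene and the size of the library, so that levels of different genes can be set side by side. Library values stand in the order 1, 2, 3 throughout. Read numbers were not used here, and the commonest ratio between low FPKM values put the other libraries at 0.859 to 1.28 times the depth of GFP-negative library 1. Only 1.22% to 3.94% of the genes used stood at that ratio, so these depths are rough. On the second principal component library 1 of either group (38.5 and 38.0) stood away from the remaining libraries (-42.0 to -7.85). Gata3, whose reporter defined the sort, averaged 22.5 ± 1.77 FPKM without GFP and 63.3 ± 0.801 FPKM with it (SD, n = 3 each). All 9 genes of the T lineage marker list were above 1 FPKM in some library. Their summed level was 2480 to 3013 FPKM over the GFP-negative libraries and 1945 to 2063 FPKM over the GFP-positive ones. By the limma test below, 5 of them were lower in GFP-positive cells, 1 (Ptcra) was higher and 3 did not pass. Of all tested genes 29.8% were lower and 24.4% higher. The 7 genes of the double-positive stage list summed to 2124 to 3180 FPKM over the GFP-negative libraries and 328 to 362 FPKM over the GFP-positive ones, although DN4 cells lack CD4 and CD8 at the surface. The 5 matched genes of the gamma-delta T cell list summed to 16.8 to 48.0 FPKM over the GFP-negative libraries and 132 to 138 FPKM over the GFP-positive ones. The summed levels of all 3 lists differed without overlap between the groups, and their part in the results below was not tested. In RNA from a bulk sort, fewer cells of a type and less RNA per cell cannot be told apart.

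Irf2, Irf3 and Irf9 were lower in GFP-positive cells by 1.60-fold to 1.83-fold and Irf8 was higher by 3.33-fold, while Irf1 and Irf7 did not pass the test and Irf4 and Irf5 were too low to be tested. The test was limma on log2(FPKM + 0.5) over all 11465 genes with a mean of at least 1 FPKM, with Benjamini-Hochberg adjusted p-values over all of them and a threshold of 0.05. Of the 6 members tested, 1 passed as higher and 3 as lower, where 24.4% of all tested genes passed as higher, 29.8% as lower and 54.2% in either direction. The share of members that passed was therefore not far from that of all genes. Their median log2 fold change was -0.59, against -0.08 for all tested genes. The groups did not overlap for 3 tested members that lay lower and 1 that lay higher in GFP-positive cells, as did 35.1% and 28.7% of all tested genes. Irf8 averaged below 1 FPKM in GFP-negative cells and reached the minimum through its GFP-positive level.

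**Figure D1:**
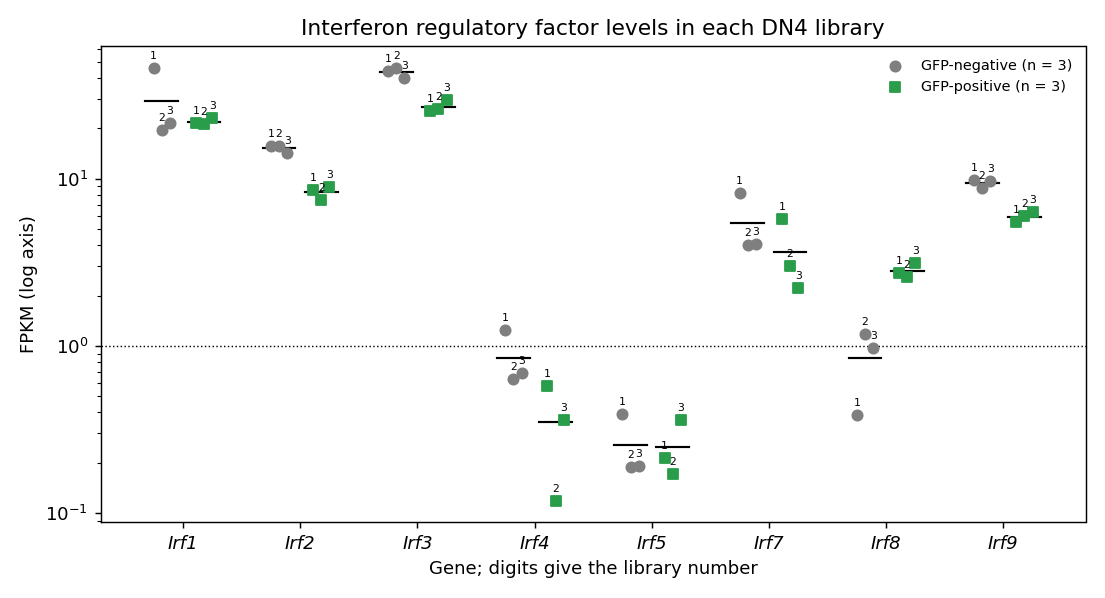
FPKM of each of the 8 members (log axis) in the 3 GFP-negative libraries (grey circles) and the 3 GFP-positive libraries (green squares), with library numbers beside the points, group means as horizontal lines and 1 FPKM as a dotted line. Irf2, Irf3, Irf4 and Irf9 lie lower and Irf8 lies higher in every GFP-positive library than in any GFP-negative library, and GFP-negative library 1 stands apart for Irf1 at 45.8 FPKM.

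Across the family the levels spanned a wide range. In GFP-negative cells Irf3 was the highest at 43.5 ± 3.13 FPKM (SD, n = 3), followed by Irf1, Irf2, Irf9 and Irf7. Irf3 and Irf1 overlapped between libraries there, whereas Irf1 and Irf2, Irf2 and Irf9, and Irf9 and Irf7 did not. Irf4, Irf8 and Irf5 closed the order below 1 FPKM on average, each overlapping its neighbour. In GFP-positive cells the order was the same down to Irf7, with the libraries of Irf3 and Irf1 now apart, and Irf8 came sixth, ahead of Irf4 and Irf5. Irf9 and Irf7, Irf7 and Irf8, and Irf4 and Irf5 overlapped there. Irf1, Irf2, Irf3 and Irf9 together made up 86.8% to 93.8% of the summed FPKM of the 8 members in each library.

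The sequence before the start of 5 members is shown because these are the ones whose levels are compared most closely below: the 3 that fell, the 1 that rose, and Irf1, which turned on a single library. Each line gives 250 bases upstream of the RefSeq transcript start in GRCm38.p6 (mm10), 5′ to 3′ on the strand of the gene. Capitals mark matches, on either strand, to an interferon regulatory factor element (2 copies of GAAA with any 2 bases between them), to a GAS element (TTCNNNGAA, the palindromic site that STAT dimers bind) or to a GATA core (GATAA).
Irf1, chr11:53769764-53770013, plus strand: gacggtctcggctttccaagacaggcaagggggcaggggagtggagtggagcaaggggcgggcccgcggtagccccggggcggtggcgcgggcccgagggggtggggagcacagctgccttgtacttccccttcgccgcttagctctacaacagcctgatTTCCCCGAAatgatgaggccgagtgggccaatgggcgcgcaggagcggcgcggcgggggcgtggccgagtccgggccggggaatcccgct
Irf2, chr8:46739495-46739744, plus strand: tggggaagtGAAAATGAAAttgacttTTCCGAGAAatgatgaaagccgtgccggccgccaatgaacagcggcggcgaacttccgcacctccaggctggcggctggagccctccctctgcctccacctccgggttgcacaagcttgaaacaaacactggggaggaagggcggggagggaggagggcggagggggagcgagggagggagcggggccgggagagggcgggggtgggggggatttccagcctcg
Irf3, chr7:44997398-44997647, plus strand: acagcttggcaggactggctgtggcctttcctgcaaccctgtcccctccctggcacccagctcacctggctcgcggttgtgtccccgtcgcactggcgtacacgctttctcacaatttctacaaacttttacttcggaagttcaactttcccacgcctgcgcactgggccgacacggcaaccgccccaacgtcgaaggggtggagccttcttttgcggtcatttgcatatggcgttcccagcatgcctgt
Irf9, chr14:55603735-55603984, plus strand: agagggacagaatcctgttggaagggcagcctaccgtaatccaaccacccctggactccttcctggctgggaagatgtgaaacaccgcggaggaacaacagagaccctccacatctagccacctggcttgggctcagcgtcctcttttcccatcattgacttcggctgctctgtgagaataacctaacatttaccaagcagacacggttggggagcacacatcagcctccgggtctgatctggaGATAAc
Irf8, chr8:120736108-120736357, plus strand: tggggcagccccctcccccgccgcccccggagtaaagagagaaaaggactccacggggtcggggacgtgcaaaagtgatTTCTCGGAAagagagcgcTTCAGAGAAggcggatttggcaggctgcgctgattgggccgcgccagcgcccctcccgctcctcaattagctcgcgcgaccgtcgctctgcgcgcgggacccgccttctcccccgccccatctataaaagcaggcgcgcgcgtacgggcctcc
A match to the interferon regulatory factor element lay in the Irf2 window at positions -241 to -232 from the start, and 2.98% of all 32851 promoter windows of the same length hold one. GAS matches lay in the windows of Irf1 at -90 to -82, of Irf2 at -224 to -216, and of Irf8 at -171 to -163 and -153 to -145, against 7.02% of all windows with at least 1. The GATAA match in the Irf9 window lay at -6 to -2, and 22.6% of all windows hold one. The Irf3 window held no match to these 3 motifs, and neither did those of Irf4, Irf5 and Irf7. No matches overlapped. A match describes letters only, and factor binding was not measured. The RefSeq start of Irf9 lies 414 bases inside the gene annotated by GENCODE, and the starts of the other 4 lie within 13 bases of theirs. Second RefSeq starts of Irf1, Irf8 and Irf9 lie 459, 2281 and 1008 bases from the GENCODE starts, and their windows, not printed here, held no match to the 3 motifs.

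Irf3 is the constitutively made factor that sensor kinases activate. It lies on chromosome 7, positions 44997648 to 45002848 of mm10, plus strand (ENSMUSG00000003184). Its level was 44.1, 46.3 and 40.1 FPKM in the GFP-negative libraries and 25.4, 26.1 and 29.5 FPKM in the GFP-positive ones. Every GFP-positive library lay below every GFP-negative one. The means of 43.5 ± 3.13 and 27.0 ± 2.18 FPKM (SD, n = 3 each) differed 1.61-fold, or by -0.68 ± 0.11 on the log2 scale (SE; limma, adjusted p = 0.00125). Irf3 starts head to head with Bcl2l12 on the opposite strand, a Bcl2-related gene that shares 88 exon bases with it. Bcl2l12 stood at 14.9 ± 2.05 and 17.99 ± 1.25 FPKM, the other direction, and did not pass (log2 fold change 0.27, limma adjusted p = 0.113).

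Irf7, the interferon-inducible relative of Irf3 that amplifies interferon production, was low and variable. The gene (ENSMUSG00000025498) occupies positions 141262706 to 141266481 on the minus strand of chromosome 7. Its level was 8.20, 4.03 and 4.10 FPKM in the GFP-negative libraries and 5.74, 2.996 and 2.22 FPKM in the GFP-positive ones. In both groups library 1 was the highest, and the groups overlapped. The log2 fold change of -0.54 ± 0.36 (SE) did not pass (limma, adjusted p = 0.235). Phrf1, a gene on the opposite strand that shares 45 exon bases with Irf7, fell (log2 change -0.48, limma adjusted p = 0.0122). With the replicate number as a block Irf7 passed at the same log2 fold change (limma, adjusted p = 0.0294), although same-numbered libraries deviated together only weakly. The log2 ratio of Irf3 to Irf7, taken on FPKM + 0.5, was 2.96 ± 0.53 in GFP-negative and 2.82 ± 0.71 in GFP-positive cells (SD, n = 3 each; two-sided exact permutation p = 0.80, 0.80 adjusted over 3 pairs). Comparisons of 3 against 3 libraries cannot give a p below 0.10 in this test.

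Irf9 is the DNA-binding subunit of ISGF3. Its gene (ENSMUSG00000002325) is on the plus strand of chromosome 14 at positions 55603571 to 55610030. Its level was 9.88, 8.86 and 9.73 FPKM in the GFP-negative libraries and 5.54, 5.96 and 6.29 FPKM in the GFP-positive ones. Again the groups did not overlap. The means of 9.49 ± 0.552 and 5.93 ± 0.376 FPKM (SD, n = 3 each) differed 1.60-fold, or by -0.64 ± 0.13 on the log2 scale (SE; limma, adjusted p = 0.00341). Rnf31, a ubiquitin ligase gene on the same strand whose annotated body shares 123 exon bases with that of Irf9, fell too. Its level went from 18.2 ± 2.07 to 9.98 ± 1.60 FPKM (SD over 3 libraries; -0.84 on the log2 scale, limma adjusted p = 0.00182).

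Irf2, the antagonist of Irf1, had the largest decrease among the members that passed. On chromosome 8 it spans positions 46739732 to 46847458 of the plus strand (ENSMUSG00000031627). Its level was 15.8, 15.6 and 14.3 FPKM in the GFP-negative libraries and 8.56, 7.51 and 8.98 FPKM in the GFP-positive ones. The spread within a group was small beside the gap between the groups. The means of 15.2 ± 0.825 and 8.35 ± 0.753 FPKM (SD, n = 3 each) differed 1.83-fold, or by -0.83 ± 0.13 on the log2 scale (SE; limma, adjusted p = 0.00075).

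Irf1, which interferon gamma and TCR signals induce, did not pass the test, and a single library set its direction. It lies on the plus strand of chromosome 11, positions 53770014 to 53778374 (ENSMUSG00000018899). Its level was 45.8, 19.7 and 21.5 FPKM in the GFP-negative libraries and 21.6, 21.2 and 23.1 FPKM in the GFP-positive ones. GFP-negative library 1 stood above all others, and the remaining 5 lay close together. The log2 fold change was -0.29 ± 0.30 (SE; limma, adjusted p = 0.439) over all libraries and 0.09 (limma, adjusted p = 0.544) without GFP-negative library 1. Gm17334, a gene annotated on the opposite strand with 135 exon bases shared with Irf1, was also highest in that library, at 13.3 FPKM against 2.85 and 3.89 FPKM in GFP-negative libraries 2 and 3. No label or header tells if counting used the strand, so reads from either strand of such an overlap cannot be told apart.

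The balance of Irf1 to Irf2 was read as a log2 ratio of their FPKM + 0.5. It was 1.51, 0.32 and 0.57 in GFP-negative libraries 1 to 3 and 1.29, 1.44 and 1.32 in GFP-positive libraries 1 to 3. GFP-positive libraries were close to each other, and GFP-negative library 1 exceeded them while the other GFP-negative libraries lay below. The difference of 0.55 did not exceed the spread by the test (two-sided exact permutation p = 0.40, 0.60 adjusted over 3 pairs, n = 3 each).

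Irf8, known for its role in dendritic cells, monocytes and B cells, was the member that rose. It lies on the plus strand of chromosome 8, positions 120736358 to 120756694 (ENSMUSG00000041515). Its level was 0.387, 1.17 and 0.969 FPKM in the GFP-negative libraries and 2.74, 2.58 and 3.11 FPKM in the GFP-positive ones. All GFP-positive libraries lay above all GFP-negative ones, and GFP-negative library 1 was the lowest. The means of 0.843 ± 0.408 and 2.81 ± 0.274 FPKM (SD, n = 3 each) differed 3.33-fold. On the log2(FPKM + 0.5) scale, which understates changes of low genes, the log2 fold change was 1.35 ± 0.29 (SE; limma, adjusted p = 0.00387). In the authors' deposited table of 6 libraries Irf8 had a q of 0.175, and in that of 4 libraries 0.466, and was called in neither.

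Markers of the cell types in which Irf8 is best known are given beside it. Of 8 B cell markers, 6 stayed below 1 FPKM in all libraries and Pax5 was listed at 0 in each. Their summed level was 146 to 162 FPKM over the GFP-negative libraries and 131 to 156 FPKM over the GFP-positive ones, nearly all of it from Ighm. Cd79b, a chain of the B cell receptor complex and the member of that list that passed, fell from 7.83 to 2.66 FPKM (-1.41 on the log2 scale, limma adjusted p = 0.00079). Of 11 myeloid and dendritic markers, 7 stayed below 1 FPKM, and the sum was 29.7 to 37.1 FPKM over the GFP-negative libraries and 27.9 to 28.7 FPKM over the GFP-positive ones. Of the 2 tested genes of that list, H2-Ab1, an MHC class II chain, rose from 2.10 to 4.29 FPKM (log2 change 0.92, limma adjusted p = 0.0163), and Cst3, a protease inhibitor, stood at 26.3 and 22.3 FPKM and did not pass (-0.22, adjusted p = 0.187). Below the minimum for testing, Itgam, the CD11b integrin chain, averaged 1.88 and 0.0266 FPKM, Cd74, the MHC class II invariant chain, 1.08 and 0.373 FPKM, and Csf1r, a receptor of monocytes and macrophages, 0.188 and 0.0699 FPKM. These 3 and Cst3 lay lower in every GFP-positive library than in any GFP-negative one. Of all tested genes, which do not include these 3, 35.1% lay lower in the same way. The remaining genes of that list were not tested and overlapped between the groups. Among them Tyrobp averaged higher in GFP-positive cells (0.313 and 0.646 FPKM) and Fcer1g was level (0.245 and 0.246 FPKM). Lyz2, Mpeg1, Flt3 and Itgax averaged lower there. Siglech, a marker of plasmacytoid dendritic cells, was listed at 0 in every library. The other genes of that list gave a summed level of 156 to 223 FPKM over the GFP-negative libraries and 55.4 to 63.6 FPKM over the GFP-positive ones, mostly from Ccr9 in the GFP-negative ones. Ccr9 fell from 163 to 19.3 FPKM (log2 change -3.04, limma adjusted p = 1.09e-05). Bst2 went the other way, from 14.3 to 29.2 FPKM (1.02, limma adjusted p = 0.00422). Tcf4 stood at 8.88 and 9.81 FPKM and did not pass (0.13, limma adjusted p = 0.400). Ly6c2, at 0.203 and 0.279 FPKM, was not tested. The NK and innate lymphoid list summed to 18.03 to 37.4 FPKM over the GFP-negative libraries and 96.7 to 109 FPKM over the GFP-positive ones, most of it Gzma. Nkg7 (5.28 FPKM), Klrd1 (2.60 FPKM) and Klrb1c (1.81 FPKM) of that list were highest in GFP-positive library 1. The part of this list in the Irf8 result was not tested.

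Irf4, the closest relative of Irf8 and a factor induced by antigen receptor signals, averaged below 1 FPKM in both groups. Chromosome 13 carries it at positions 30749226 to 30766976 of the plus strand (ENSMUSG00000021356). Its level was 1.24, 0.635 and 0.684 FPKM in the GFP-negative libraries and 0.574, 0.119 and 0.362 FPKM in the GFP-positive ones. The groups did not overlap, and every GFP-positive library was the lower. Of all tested genes, which do not include Irf4, 63.8% did not overlap in either direction and 35.1% lay lower in this way. Fitted without a minimum level, its log2 fold change of -0.68 did not pass (limma, adjusted p = 0.128). The log2 ratio of Irf4 to Irf8 was 0.97, -0.56 and -0.31 in GFP-negative libraries 1 to 3 and -1.59, -2.32 and -2.07 in GFP-positive libraries 1 to 3. Irf8 exceeded Irf4 in every GFP-positive library and in GFP-negative libraries 2 and 3. The difference of -2.02 gave the smallest p that the design allows (two-sided exact permutation p = 0.10, 0.30 adjusted over 3 pairs, n = 3 each).

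Irf5, a mediator of Toll-like receptor signals in myeloid cells, was the lowest member. The gene (ENSMUSG00000029771) sits on chromosome 6, positions 29526625 to 29541871 of the plus strand. Its level was 0.390, 0.188 and 0.190 FPKM in the GFP-negative libraries and 0.213, 0.172 and 0.360 FPKM in the GFP-positive ones. The groups overlapped throughout, at means of 0.256 ± 0.116 and 0.248 ± 0.0986 FPKM (SD, n = 3 each), and at this level a difference could not be resolved. In a fit without a minimum level the change of Irf5 by log2 was -0.01 (limma, adjusted p = 0.971). Tnpo3, a gene on the opposite strand, shares 411 exon bases with Irf5 and stood at 33.0 and 36.3 FPKM. It did not pass (log2 change 0.14, limma adjusted p = 0.300). Whether its reads add to the low level of Irf5 was not tested. Within GFP-negative cells 6 of the 8 members, all but Irf3 and Irf8, were highest in library 1. The lead was small for Irf2 (15.8 against 15.6 FPKM in library 2) and Irf9 (9.88 against 9.73 FPKM in library 3). How many of all genes were highest in that library was not counted, so this is not read as a trait of the family.

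**Figure D2:**
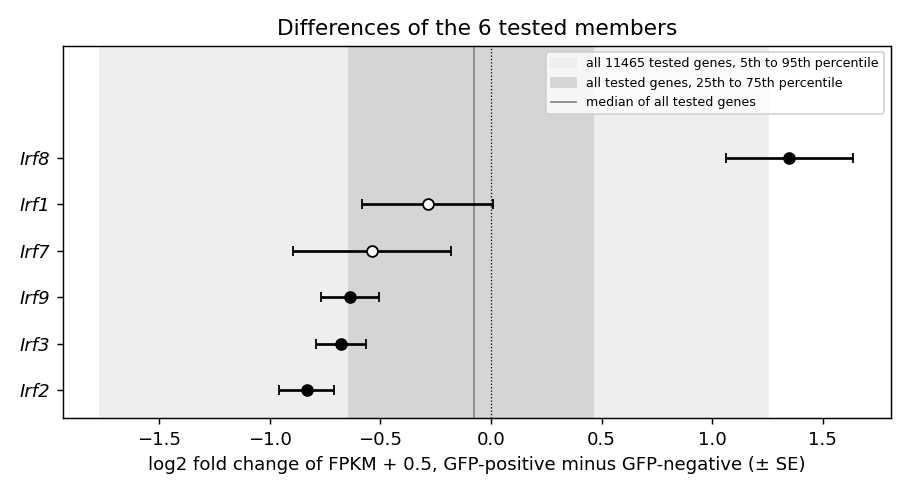
Log2 fold change of FPKM + 0.5 (GFP-positive minus GFP-negative) of the 6 tested members, as points with standard errors, filled where the limma adjusted p is below 0.05, over shaded ranges that hold 5% to 95% and 25% to 75% of all 11465 tested genes. Irf2 at -0.83 and Irf3 at -0.68 lie just below the range of the middle genes (-0.64 to 0.46), Irf9 at -0.64 lies at its edge, and Irf8 at 1.35 lies above the 95th percentile of 1.25.

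The authors' deposited tables hold a test of their own. In the authors' deposited table of 6 libraries 3 of the 6 members tested passed a q of 0.05, where 49.3% of the genes they tested did: Irf2 (q of 0.00019), Irf3 (0.000999) and Irf9 (0.0352). In the authors' deposited table of 4 libraries, which leaves out library 1 of each group, 2 of 6 passed, Irf2 (0.00034) and Irf3 (0.017), where 34.9% of the tested genes did. Irf9 had a q of 0.165 in that run of the authors' deposited table and passed limma on its FPKM values (log2 fold change -0.60, adjusted p = 0.0289).

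**Figure D3:**
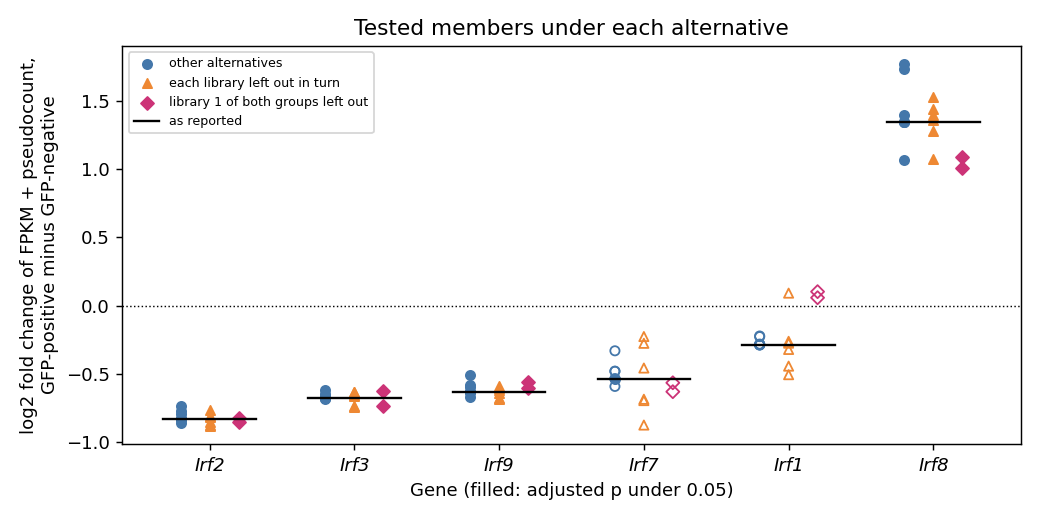
Log2 fold change (GFP-positive minus GFP-negative) of the 6 tested members as reported (black lines), with each library left out in turn (triangles), without library 1 of both groups (diamonds) and under the other alternatives (circles), filled where the limma adjusted p is below 0.05. Irf2, Irf3 and Irf9 stay below 0 and Irf8 stays above 0 in every fit that tested them, all filled, whereas Irf1 lies on either side of 0, from -0.51 to 0.10.

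Genes whose pattern over the 6 libraries came closest to a member were found by the root mean square difference of log2(FPKM + 0.5), each gene centred on its mean, among tested genes with a mean of at least 5 FPKM (7890 in number). Closest to Irf2 were Trim21, a ubiquitin ligase and cytosolic antibody receptor (0.03), Usp3, a deubiquitinase (0.04), and Atg4d, an autophagy protease (0.04). Trim21 stood at 8.34, 8.46 and 7.56 FPKM in the GFP-negative libraries and 4.24, 3.97 and 4.69 FPKM in the GFP-positive ones. Closest to Irf3 were Lrch1 (0.03), Zfp646 (0.04) and D930015E06Rik (0.04). Irf8 had no neighbour as close: Timm17a, a mitochondrial import subunit, came first (0.12), then Nop10 (0.13) and Naf1 (0.13), both of which serve H/ACA small nucleolar RNA particles. Irf8 itself averaged 1.83 FPKM, below the minimum set for these candidates, and the part of its low level in these distances was not tested.

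The genes around the family were taken from 6 lists. Of 11 interferon ligand genes none reached 1 FPKM in any library, and 9, Ifnb1 and all listed Ifna genes among them, were listed at 0 in every library. Ifng was listed at 0 in all libraries but GFP-positive library 1 (0.533 FPKM), and Ifnk ranged from 0 to 0.901 FPKM.

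Receptors and the JAK-STAT chain were mostly lower in GFP-positive cells, 7 of 10 tested genes, with 1 higher and a median log2 fold change of -0.72, beside the 29.8% lower and 24.4% higher of all tested genes. Stat2, a partner of Irf9 in ISGF3, stood at 11.4, 11.3 and 9.80 FPKM in the GFP-negative libraries and 3.92, 4.32 and 4.56 FPKM in the GFP-positive ones. The change was -1.25 ± 0.14 on the log2 scale (SE; limma, adjusted p = 0.0002). The chains of the type I interferon receptor parted: Ifnar1 fell from 24.0 ± 2.52 to 12.0 FPKM (-0.97, limma adjusted p = 0.000361), while Ifnar2 rose from 11.9 ± 1.35 to 16.8 FPKM (0.48, adjusted p = 0.026), a call lost without GFP-negative library 1, GFP-positive library 2 or GFP-positive library 3 and without a minimum level (limma adjusted p up to 0.103). Jak2, a kinase of the interferon gamma receptor, fell with a log2 fold change of -1.04 (limma, adjusted p = 0.000358).

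Sensors, adaptors and kinases that act upstream of Irf3 and Irf7 had 4 higher and 6 lower of 17 tested and a median of -0.19. Their shares of 23.5% higher and 35.3% lower were close to the 24.4% and 29.8% of all tested genes. Ikbke, a kinase that phosphorylates Irf3 and Irf7, stood at 23.4, 20.7 and 23.1 FPKM in the GFP-negative libraries and 7.47, 8.91 and 9.32 FPKM in the GFP-positive ones, that is -1.34 ± 0.13 on the log2 scale (SE; limma, adjusted p = 9.49e-05). Its relative Tbk1 fell less, from 12.2 to 9.04 FPKM (-0.41, limma adjusted p = 0.0208). Ddx58, which encodes the RNA sensor RIG-I, fell as well (-0.96, limma adjusted p = 0.0041), and so did Ticam1, the adaptor of Tlr3 (-0.78, adjusted p = 0.0205). Mb21d1, which encodes the DNA sensor cGAS, rose from 1.17 ± 0.222 to 2.68 FPKM (0.94, limma adjusted p = 0.00561) and Tmem173, which encodes STING, from 2.30 to 3.71 FPKM (0.58, adjusted p = 0.0444). Irak1, a kinase of Toll-like receptor signalling, rose too (0.51, limma adjusted p = 0.00714). The calls of Ticam1 and Tmem173 were lost under 6 and 7 of 15 alternatives, fits without single libraries of either group among them (limma adjusted p up to 0.168 and 0.356).

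Partners and regulators of the family had 3 higher (17.6%) and 8 lower (47.1%) of 17 tested, beside 24.4% and 29.8% of all tested genes, with a median of -0.01. Nfatc2, which partners Irf4 on cytokine genes, fell from 6.65 ± 1.63 to 2.49 FPKM (log2 change -1.25, limma adjusted p = 0.00152). Ikzf3, the Ikaros family factor Aiolos, fell from 92.8 ± 11.2 to 43.9 FPKM (-1.07, adjusted p = 0.000219). Irf2bpl, related to the corepressors that bind Irf2, fell with a log2 fold change of -0.99 (limma, adjusted p = 0.00496), whereas Irf2bp1 and Irf2bp2 themselves stood at 0.27 and 0.23 and did not pass (adjusted p = 0.0943 and 0.091). Etv6, an Ets family repressor, rose (0.66, limma adjusted p = 0.00436), as did Swap70 (0.57, adjusted p = 0.0226), a relative of the Irf4-binding protein Def6, and Rock2 (0.39, adjusted p = 0.0256), a kinase of Irf4. The calls of Swap70 and Rock2 were lost under 6 of 15 and 7 of 16 alternatives, most of them fits without single libraries of either group (limma adjusted p up to 0.101 and 0.114). The Ets factors Spi1 and Spib, with which Irf4 and Irf8 bind composite sites, stayed below 1 FPKM on average, with Spi1 listed at 0 in every library but GFP-negative library 2 (0.350 FPKM). Batf3, a partner of Irf8 in dendritic cells, was listed at 0 in every library.

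Target genes of the family did not share 1 direction. Of 14 tested genes of antigen presentation that Irf1 is known to induce, 8 rose (57.1%) and 2 fell (14.3%), beside 24.4% and 29.8% of all tested genes, with a median log2 fold change of 0.55. Psmb10, an immunoproteasome subunit, stood at 8.65, 12.4 and 15.7 FPKM in the GFP-negative libraries and 21.0, 24.6 and 24.0 FPKM in the GFP-positive ones (log2 fold change 0.93 ± 0.20, SE; limma, adjusted p = 0.00383). Psme2, a proteasome activator subunit, rose by 0.90 and H2-K1, an MHC class I heavy chain, by 0.85 on the log2 scale (limma adjusted p = 0.00188 and 0.00175). Gbp2, an interferon-inducible GTPase, fell (-0.75, limma adjusted p = 0.0083; 0.0518 in the 4-library table), and Tap2, a peptide transporter chain, had a log2 fold change of -0.37 (limma, adjusted p = 0.0482), a call lost under 12 of 16 alternatives (adjusted p up to 0.218).

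Of 14 tested genes that ISGF3, Irf3 or Irf7 are known to induce, 1 rose, 2 fell and 11 did not pass, with a median of 0.08. Of all tested genes, 54.2% passed in either direction. Zbp1, a sensor of Z-form nucleic acids, fell from 6.16 ± 0.538 to 1.97 FPKM (log2 change -1.47, limma adjusted p = 0.000946), and Adar, an RNA-editing deaminase, from 20.7 ± 1.52 to 11.3 FPKM (-0.85, adjusted p = 0.000614). Bst2, which encodes tetherin, rose from 14.3 ± 3.91 to 29.2 FPKM (1.02, limma adjusted p = 0.00422). Among those that did not pass or were not tested, Isg15 stood at 1.96 and 2.41 FPKM in GFP-negative and GFP-positive cells, Ifit2 at 6.32 and 7.15 FPKM, Eif2ak2 at 4.63 and 6.36 FPKM, Ifit1 at 0.437 and 0.569 FPKM, and Mx1 at 0.143 and 0.106 FPKM.

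**Figure D4:**
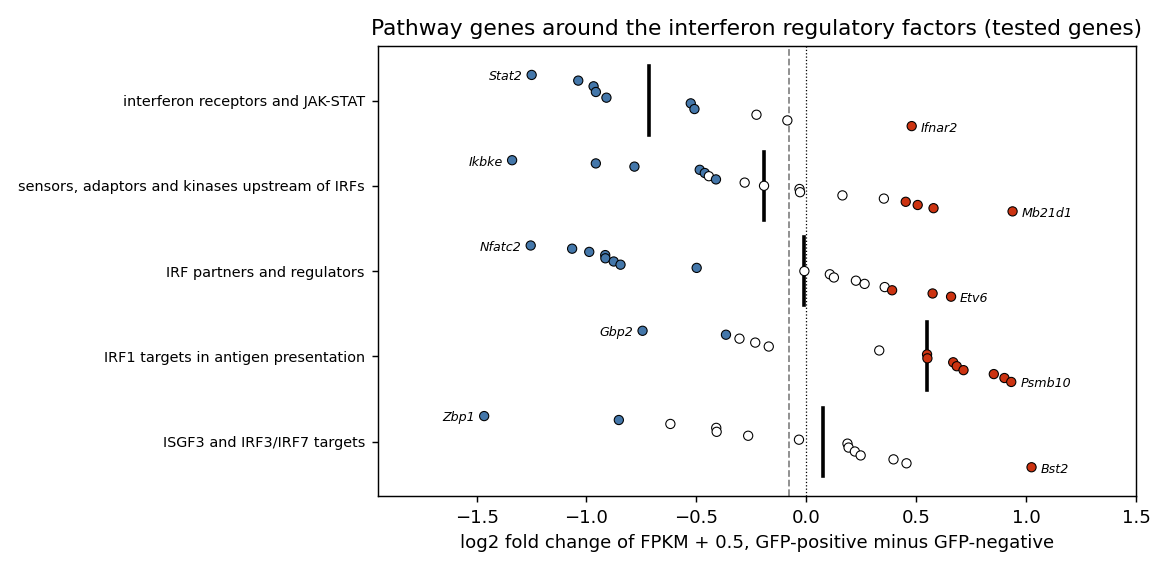
Log2 fold change of FPKM + 0.5 (GFP-positive minus GFP-negative) of each tested gene in 5 pathway lists, red where it rose and blue where it fell at a limma adjusted p below 0.05, open where it did not pass, with the list median as a black bar, the median of all tested genes as a dashed line and the outermost genes named. The receptor and JAK-STAT list has its median at -0.72 and the antigen presentation list at 0.55, with the other lists between -0.19 and 0.08.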

How the data were processed

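RNA of sorted cells was depleted of rRNA before library preparation, per the labels' protocols. TopHat2, Cuffdiff and the build mm10 are named in the submitters' processing notes, without versions or settings. The authors deposited FPKM per library from a Cuffdiff run over 6 libraries and another over 4, both with the authors' p-value and q-value for each gene, per the file headers.

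Members were read by symbol from the 6-library run, whose 27 symbols turned into dates were replaced by GENCODE M21 names. Groups were compared with limma 3.58.1 in R 4.3.3 on log2(FPKM + 0.5), using a variance trend and robust shrinkage. The minimum was a mean of 1 FPKM, which left 11465 genes after removal of 24 with the authors' status HIDATA. Benjamini-Hochberg adjustment ran over all of them. FPKM are not counts, so no count test was used. Level ratios were log2 ratios of FPKM + 0.5 and were tested with SciPy 1.17.1. The limma procedure was run on simulated data with far fewer changed genes than passed here and no shared library effects. The results above do not rest on that run. FPKM give no read numbers, so no counting intervals are given, and a listed 0 can be a failed estimate.

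Named were the 8 members, Gata3, in each list the 3 largest log2 fold changes past the threshold in either direction (with none past it, the 2 highest by level), and the genes most like 3 members. Tbk1, Irf2bp1, Irf2bp2, Spi1, Spib, Batf3, Isg15, Ifit1, Ifit2, Eif2ak2, Mx1, the marker genes and the overlapping genes were named after their values were seen. The members and lists were chosen with earlier results of these data known. Alternatives were pseudocounts, filters, scalings, the variance model, a replicate block, each library left out and 2 fits of 4 libraries. The third deposited table, a note on Gata3, was not used. Promoter sequences are from RefSeq (GRCm38.p6), which held all 8 members.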

Additional observations from a re-analysis of the deposited data

How the results depend on the processing

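The calls of Irf2, Irf3 and Irf9 held under all 16 alternatives, at log2 fold changes of -0.88 to -0.74, -0.74 to -0.62 and -0.68 to -0.51, and that of Irf8 under the 15 that tested it, at 1.01 to 1.77. Over the 6 libraries Irf8 reached the minimum of 1 FPKM through its GFP-positive level, so fits that kept that minimum are no separate support. Without a minimum its log2 fold change was 1.35 (limma, adjusted p = 0.00931). With a minimum mean of 5 FPKM Irf8 was not tested, so 0 members were higher. Irf1 turned to 0.058 in the 4-library table, to 0.10 in the same 4 libraries of the 6-library table and, with single libraries left out, ranged from -0.51 to 0.091. Irf7 ranged from -0.88 to -0.23 with single libraries left out and passed with the replicate block (-0.54). Same-numbered libraries deviated together with correlations of 0.09, -0.02 and 0.06, against -0.11 to 0.07 for differently numbered ones. The numbers are not taken as pairs, although library 1 of either group stood apart on the second principal component. Whether same-numbered libraries share a batch was not tested. The replicate block called 2929 genes higher and 3461 lower. The difference of Irf4, -0.68, was -1.17 with a pseudocount of 0.1. The shift of the Irf3 to Irf7 ratio ranged from -0.46 to 0.24 with single libraries left out.

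With quantile normalization the all-gene median rose by 0.13 on the log2 scale and the split went from 2797 higher and 3419 lower to 3494 and 2846. Relative to the median, Irf2, Irf3, Irf9 and Irf8 stood at -0.76, -0.60, -0.56 and 1.43 as reported, and at -0.79, -0.71, -0.57 and 1.72 after it.

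Counts in lists moved as follows. Higher receptor and JAK-STAT genes were 0 without a filter and 0 to 1 with single libraries left out. Higher sensor genes were 2 without a filter and in both fits of 4 libraries, and 2 to 4 with single libraries left out, and lower ones 3 in the 4-library table. Higher partners were 5 with quantile normalization and with upper quartile scaling, 1 in both fits of 4 libraries and 1 to 3 with single libraries left out. Lower antigen presentation genes were 1 without a filter, at a minimum of 5 FPKM, with quantile normalization, upper quartile scaling, plain limma, the replicate block and both fits of 4 libraries, and 1 to 3 with single libraries left out. Higher ISGF3 targets were 2 with quantile normalization and upper quartile scaling and 1 to 3 with single libraries left out, and lower ones 1 at a minimum of 5 FPKM. Except for the list genes not tested at that minimum and for single libraries, the causes of these moves were not tested. Of 377 values of the 24 named list genes, 43 lost their call and 0 turned direction.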
